A study of Homo sapiens with 6 samples.

Results

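Expression of 10 Notch pathway genes was examined in U87-MG, a cell line long established from a human glioblastoma. The genes were taken from the deposited table by their symbols, and each of the 10 was found once among its 61806 genes. They comprise 3 receptors (NOTCH1, NOTCH2 and NOTCH3), 3 ligands (JAG1, JAG2 and DLL1) and 4 targets (HES1, HEY1, HEYL and NRARP). RNA sequencing was done on 3 libraries of the negative control (NC), whose cells are given as wildtype, and 3 libraries given as GRIK1 knockdown and titled GRIK1 siRNA 1, 2 and 3. The design text names an shRNA, while the methods of the study describe siRNAs that were transfected with a lipid reagent. The study gives its siRNA1 as the sequence taken forward after a comparison of several, while the library titles are numbered like those sequences. Neither source ties the sequenced libraries to a sequence or to separate cultures, so p-values measure the spread between these libraries only. The dose and the time after transfection were not given in the sources used here.

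Notch signaling passes between cells that touch each other. A ligand of the Jagged or Delta-like family on a cell binds a Notch receptor on its neighbour, and cleavage by ADAM proteases and then by gamma-secretase frees the intracellular domain of the receptor. This domain enters the nucleus, where it joins the DNA-binding protein RBPJ and a MAML co-activator and switches on targets such as the HES and HEY repressors and the feedback inhibitor NRARP. In glioma, the pathway is best known for a role in stem-like tumor cells.

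The promoters of 3 targets are shown first, because these genes are the usual readout of the pathway and their levels were very unequal. Each sequence holds the 250 bases before the RefSeq start of the gene (GRCh38.p14), read 5′ to 3′ on the strand of the gene. Capitals mark the core that RBPJ is known to bind, TGGGAA, searched on both strands. The HES1 promoter is at chr3:194135898-194136147 (plus strand), that of HEYL at chr1:39639644-39639893 (minus strand) and that of NRARP at chr9:137302272-137302521 (minus strand).
HES1: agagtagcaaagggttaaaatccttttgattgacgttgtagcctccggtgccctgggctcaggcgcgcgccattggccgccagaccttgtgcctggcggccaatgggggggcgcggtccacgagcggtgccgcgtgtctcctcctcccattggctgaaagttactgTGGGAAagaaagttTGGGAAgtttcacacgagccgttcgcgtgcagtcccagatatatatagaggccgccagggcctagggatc
HEYL: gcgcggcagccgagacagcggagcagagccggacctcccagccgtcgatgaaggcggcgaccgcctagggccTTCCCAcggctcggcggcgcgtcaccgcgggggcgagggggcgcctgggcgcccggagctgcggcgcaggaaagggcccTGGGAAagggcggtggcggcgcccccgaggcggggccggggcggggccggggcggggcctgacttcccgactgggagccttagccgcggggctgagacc
NRARP: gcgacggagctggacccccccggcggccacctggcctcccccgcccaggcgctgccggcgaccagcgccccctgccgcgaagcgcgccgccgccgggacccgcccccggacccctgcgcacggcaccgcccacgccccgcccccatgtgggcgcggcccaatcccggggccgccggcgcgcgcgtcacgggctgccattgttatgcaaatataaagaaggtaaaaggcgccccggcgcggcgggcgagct

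HES1 had 2 copies of the core, on its own strand, whose first bases lie 84 and 70 bases before the start. HEYL also had 2, of which 1 is on the opposite strand at 178 bases and 1 on its own strand at 99 bases. Of the 35116 RefSeq promoters of this length, 20.8% held at least 1 copy and 2.90% held at least 2. Promoters of 8 of the 10 genes were searched. HEY1 was left out of the search, and no RefSeq promoter of this length was found for DLL1. HES1 and HEYL were the 2 of the 8 with the core. The N-box CACNAG, a motif bound by HES1 itself, was searched on both strands in the same way. It was found 3 times in HES1 and once in NOTCH3, and 32.0% of all promoters held at least 1. These matches describe the letters in the window and say nothing of binding in these cells.

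The total counts lay between 11099909 and 14006968 per library. The targeted gene had 18, 9 and 8 counts in NC libraries 1, 2 and 3 and 15, 20 and 20 in GRIK1 siRNA libraries 1, 2 and 3. GRIK1 was therefore not lower in the libraries named after its knockdown (log2 fold change 0.44, standard error (SE) 0.43, edgeR adjusted p = 0.620 without a filter on low values), and "GRIK1 siRNA" is used here as the label of these libraries only. These counts are few, and the mean of GRIK1, 0.287 FPKM, lies below the filter given later. The study itself reports an efficient knockdown of GRIK1 in U87-MG cells, in measurements other than this sequencing. NC library 3 stood apart from the others. The common dispersion of edgeR, which measures the spread within groups, was 0.0391 with all 6 libraries and 0.00298 without it. Each test of a gene that passed the filter below is therefore given with and without NC library 3. Levels are given as FPKM (fragments per kilobase of exonic size, scaled to the library total). Of the 7 glioma and neural progenitor markers, 3 reached a mean of 0.5 FPKM. VIM and CD44 were high, and OLIG2 lay between 0.41 and 0.83 FPKM. NES lay between 0.21 and 0.69 FPKM, and SOX2, S100B and GFAP did not pass 0.28 FPKM in any library. The summed level of the 7 was between 876 and 1149 FPKM in the NC libraries and between 1066 and 1096 FPKM in the others. VIM, between 825 and 1076 FPKM, made up most of this sum. CDKN2A, CDKN2B and MTAP, which lie in the deleted part of chromosome 9 that is known for this line, reached at most 0.04 FPKM. Of the other lists, 1 of 6 endothelial markers (KDR), 3 of 4 neuronal markers (SNAP25, SYT1 and GAD1) and 1 of 4 immune markers (CD68) had a mean of at least 0.5 FPKM, while CD3E and AIF1 had no count. Summed levels in the NC and GRIK1 siRNA libraries were 1.63 to 2.41 and 1.69 to 2.21 FPKM for the endothelial list, 3.45 to 6.46 and 5.83 to 6.05 FPKM for the neuronal list, and 2.11 to 3.22 and 3.47 to 4.07 FPKM for the immune list. Their part in the results was not tested. Since whole cultures were sequenced, fewer cells of a type and less RNA per cell cannot be told apart.

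NOTCH2 was by far the most abundant of the 10 genes, and the targets ranged from over 100 reads per library to none. Levels are compared between genes as FPKM. In the GRIK1 siRNA libraries the order was NOTCH2 (31.3 ± 0.225 FPKM, SD, n = 3), JAG1 (4.75 ± 0.199), NOTCH3 (3.31 ± 0.279), HEY1 (2.97 ± 0.219), HES1 (2.73 ± 0.197), NOTCH1 (1.91 ± 0.221), JAG2 (1.01 ± 0.0981), DLL1 (0.123 ± 0.0208), NRARP (0.117 ± 0.0493) and HEYL (0). The ranges of NOTCH3 and HEY1, of HEY1 and HES1, and of DLL1 and NRARP overlapped across the libraries. Such ranges do not compare genes within a library. HEY1 was above HES1 in each GRIK1 siRNA library (2.88, 3.22 and 2.81 against 2.63, 2.96 and 2.61 FPKM). NOTCH3 and HEY1, and DLL1 and NRARP, did not keep the same order in each library. In the NC libraries, NOTCH2 was again highest (19.2 ± 8.36 FPKM, SD, n = 3). JAG1 (2.73 ± 1.10), HEY1 (2.66 ± 0.184), NOTCH3 (2.63 ± 1.24), HES1 (1.93 ± 0.746), NOTCH1 (1.22 ± 0.614) and JAG2 (0.947 ± 0.353) followed, each overlapping the next in range. Within each NC library NOTCH3 was above HES1 and HES1 above NOTCH1, while the other neighbours from JAG1 to JAG2 changed order. In NC libraries 1 and 2 alone, JAG1 (3.36 FPKM) and NOTCH3 (3.34) overlapped, and HEY1, HES1, NOTCH1 and JAG2 then followed in this order, each apart from the next. DLL1 (0.187 ± 0.132), NRARP (0.103 ± 0.123) and HEYL (0) were lowest in this group too.

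**Figure D1:**
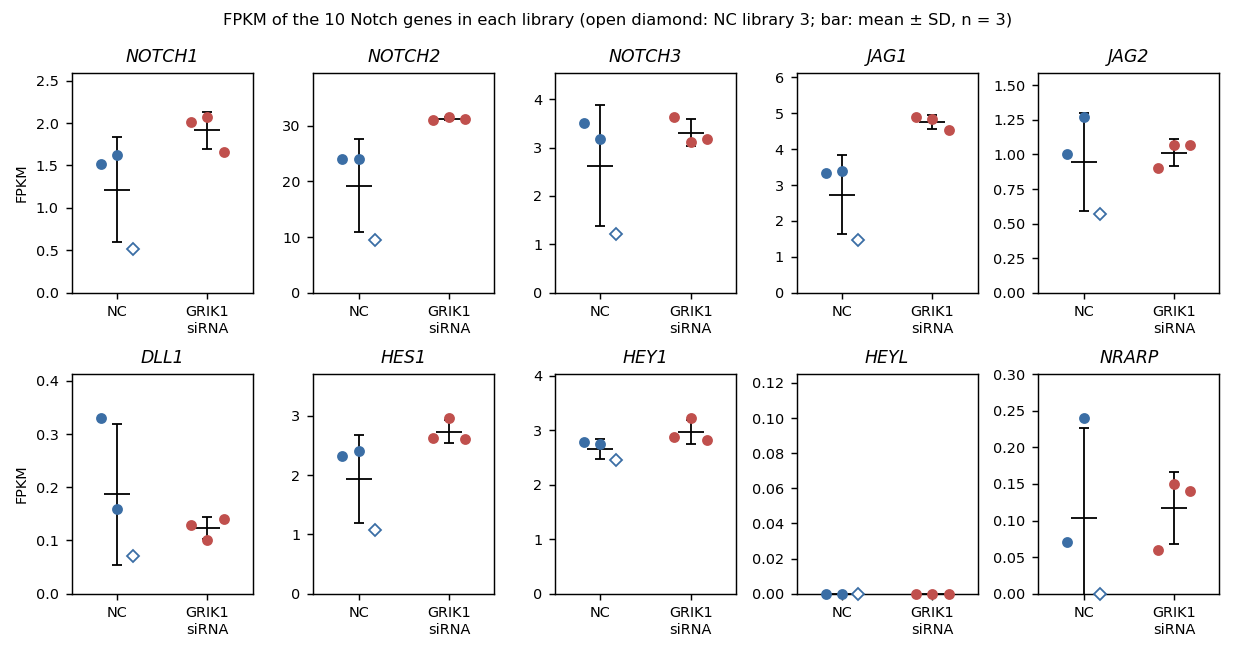
FPKM (vertical axes, linear, a scale for each gene) of the 10 Notch genes in the 3 NC and the 3 GRIK1 siRNA libraries, with the mean and SD (n = 3) as bars and NC library 3 as an open diamond. NC library 3 is the lowest of the 6 libraries for 9 of the 10 genes. HEYL is at 0 in each library, and the lower bar of NRARP in NC is cut off at 0.

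For the comparison of the groups, the counts were scaled by TMM (trimmed mean of M values, which sets the libraries to a common size) and tested with the quasi-likelihood test of edgeR across 15870 genes, those whose mean FPKM reached 0.5 or more. The log2 fold change is the GRIK1 siRNA level against the NC level, positive where GRIK1 siRNA is higher. A gene was called at a Benjamini-Hochberg adjusted p under 0.05. Of the 10 genes, 7 passed the filter, and 0 of these 7 were called with all 6 libraries (smallest edgeR adjusted p = 0.141, for JAG1). At an unadjusted p under 0.05 there was 1 of 7, beside 25.1% of all genes tested, and DESeq2 also called 0 of 7, beside 10.6%. Across all genes tested, 1.61% were called as higher in the GRIK1 siRNA libraries and 1.48% as lower, and 1.41% also passed an absolute log2 fold change of 1. The median log2 fold change of the 7 genes was 0.44, beside -0.02 for all genes tested. Without NC library 3, 2 of the 7 were called, NOTCH2 and JAG1, both higher. In that fit 16.9% of all genes tested were called as higher and 18.3% as lower, and the median of the 7 was 0.19 beside 0.01. Read against this background, 2 of 7 is not taken as particular to these genes.

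In NC library 3, 6 of the 7 genes stood far below the other NC libraries. On the scale of normalized CPM (the count scaled to a common library size with the TMM factors), NOTCH1 was at 37.0% of the mean of NC libraries 1 and 2, NOTCH3 at 41.2%, NOTCH2 at 44.9%, JAG1 at 49.2%, HES1 at 51.6% and JAG2 at 57.0%. HEY1 was the exception, at 100.3%. Over all genes tested, the log2 difference of NC library 3 from the mean of the other NC libraries had a median of -0.03, with the middle 80% of genes between -1.13 and 0.80. Only 5.52% of the genes tested lay below NOTCH1 in this difference, 7.51% below NOTCH3, 9.57% below NOTCH2, 12.5% below JAG1, 14.9% below HES1 and 18.8% below JAG2. The difference moved with base composition across all genes tested. With the genes in 4 equal classes by GC content, its median was 0.27, 0.13, -0.12 and -0.38 from the lowest class to the highest. By the GC content of the longest GENCODE 29 transcript, NOTCH1 (62.9%), NOTCH3 (63.1%) and JAG2 (64.0%) were in the highest class, while NOTCH2 (49.4%), JAG1 (49.6%) and HES1 (49.9%) were in the next one and HEY1 (47.3%) in the second lowest. The part of GC content in these differences was not tested.

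**Figure D2:**
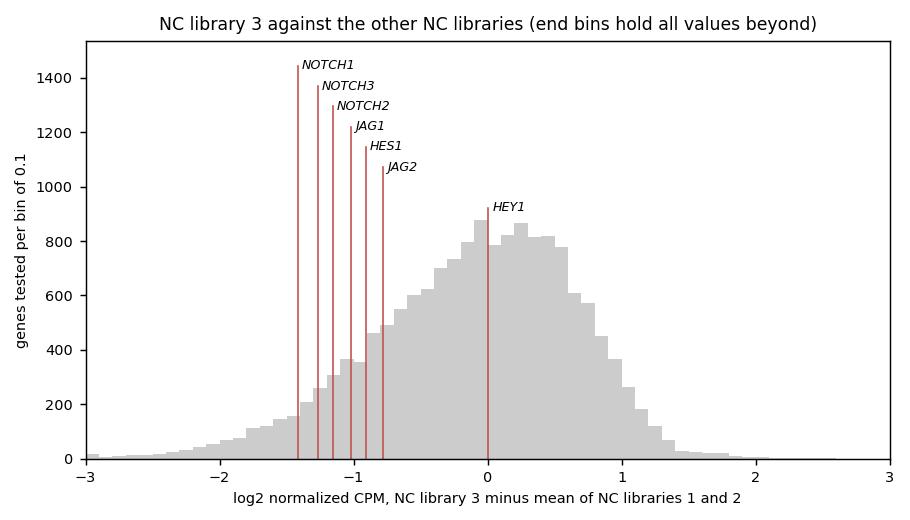
Histogram of the genes tested by the log2 difference in normalized CPM between NC library 3 and the mean of NC libraries 1 and 2 (horizontal axis, bins of 0.1, vertical axis number of genes). Red lines mark the 7 Notch genes tested. HEY1 sits at the middle of the genes, and the other 6 sit in the lower tail, from -1.42 for NOTCH1 to -0.78 for JAG2.

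Of the 3 receptors, NOTCH2 alone was called as higher in the GRIK1 siRNA libraries, and only without NC library 3. In that fit 16.9% of all genes tested were called as higher. NOTCH2 (ENSG00000134250, chromosome 1 from 119911553 to 120100779, minus strand) had 398, 401 and 180 normalized CPM in NC libraries 1, 2 and 3 and 506, 514 and 512 normalized CPM in GRIK1 siRNA libraries 1, 2 and 3. The groups did not overlap, and the GRIK1 siRNA libraries lay close together. The log2 fold change was 0.65 with all 6 libraries (SE 0.29, edgeR adjusted p = 0.212). Without NC library 3, NOTCH2 rose by a log2 fold change of 0.36 (SE 0.05, edgeR adjusted p = 1.08e-05, 1.81e-11 from DESeq2). The NOTCH2NL genes are partial copies of NOTCH2 on the same chromosome, so the counting could have shared reads between them. They were far lower than NOTCH2, with NOTCH2NLC, the highest, between 0.96 and 1.70 FPKM. NOTCH2NLB and NOTCH2NLC, which passed the filter, had log2 fold changes of 0.28 and 0.29 (edgeR adjusted p = 0.378 and 0.295), and neither was called without NC library 3.

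NOTCH1 (ENSG00000148400, chromosome 9 from 136494433 to 136546048, minus strand), the receptor best known from T-cell leukemia, had 18.9, 20.3 and 7.24 normalized CPM in NC and 24.5, 25.3 and 20.4 in GRIK1 siRNA. The groups did not overlap, though GRIK1 siRNA library 3 stood barely above NC library 2. Its log2 fold change was 0.60 (SE 0.35, edgeR adjusted p = 0.311), and 0.26 without NC library 3 (SE 0.11, adjusted p = 0.0916), so NOTCH1 was not called in either fit. ENSG00000227512, on the opposite strand within NOTCH1, had between 0 and 12 counts per library.

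NOTCH3 (ENSG00000074181, chromosome 19 from 15159038 to 15200995, minus strand), known from vascular smooth muscle, had 32.7, 29.8 and 12.9 normalized CPM in NC and 33.2, 28.6 and 29.3 in GRIK1 siRNA. The GRIK1 siRNA libraries lay at the level of NC libraries 1 and 2, and only NC library 3 was lower. The log2 fold change of 0.27 (SE 0.31, edgeR adjusted p = 0.605) turned to -0.04 without that library (SE 0.10, adjusted p = 0.785). The direction for NOTCH3 turned only when NC library 3 was left out, among the fits run.

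JAG1 had the largest log2 fold change of the 7 genes in both edgeR fits, while limma on log2(FPKM + 1) gave 0.78 for NOTCH2 and 0.67 for JAG1. JAG1 (ENSG00000101384, chromosome 20 from 10637684 to 10673999, minus strand), a ligand of the Jagged family, had 30.7, 31.4 and 15.3 normalized CPM in NC and 44.2, 43.8 and 41.1 in GRIK1 siRNA. All 3 GRIK1 siRNA libraries were above each NC library. Its log2 fold change was 0.74 (SE 0.26, edgeR adjusted p = 0.141). Without NC library 3, JAG1 rose by a log2 fold change of 0.47 (SE 0.08, edgeR adjusted p = 0.000235, 0.000229 from DESeq2), from 31.1 ± 0.489 (SD, n = 2) to 43.0 ± 1.68 normalized CPM (SD, n = 3).

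The other Jagged ligand did not show this pattern. JAG2 (ENSG00000184916, chromosome 14 from 105140982 to 105168824, minus strand) had 6.33, 8.08 and 4.10 normalized CPM in NC and 5.58, 6.64 and 6.67 in GRIK1 siRNA, and the groups overlapped. Its log2 fold change was 0.03 (SE 0.26, edgeR adjusted p = 0.946), and -0.19 without NC library 3 (SE 0.18, adjusted p = 0.440). The difference in response between JAG1 and JAG2 was not tested.

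DLL1 (ENSG00000198719, chromosome 6 from 170282206 to 170306565, minus strand), a Delta-like ligand, was below the filter. It had 14, 7 and 4 counts in NC and 6, 5 and 7 counts in GRIK1 siRNA, so its level rested on few reads. The groups overlapped. Without NC library 3 all GRIK1 siRNA libraries were below the other NC libraries in normalized CPM, which also held for 28.5% of all genes tested. NC library 2 and GRIK1 siRNA library 3 had the same 7 counts, and were apart only through the scaling (0.629 and 0.519 normalized CPM). In the fit without a filter the log2 fold change of DLL1 was -0.67 (SE 0.59, edgeR adjusted p = 0.610). FAM120B overlaps DLL1 on the opposite strand and had between 598 and 1056 counts per library. Whether the counting used strand is not given in the sources used here, so the few reads of DLL1 are uncertain.

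Of the 4 targets, HES1 and HEY1 passed the filter. Of these 2, 0 were called by edgeR with or without NC library 3 or by DESeq2, also at an unadjusted p under 0.05. Of all genes tested, edgeR called 1.61% as higher and 1.48% as lower with all 6 libraries, and 35.2% without NC library 3. DESeq2 called 10.6% and 26.5%, and 25.1% had an unadjusted p under 0.05 from edgeR with all 6. Beside these shares, 0 of 2 is not taken as particular to the targets. HEYL and NRARP were at or near the limit of detection. HES1 (ENSG00000114315, chromosome 3 from 194136148 to 194138732, plus strand), the repressor whose promoter with 2 RBPJ cores is shown above, had 53, 55 and 31 counts in NC and 67, 77 and 71 counts in GRIK1 siRNA. In normalized CPM these were 4.72, 4.94 and 2.49 against 5.26, 5.94 and 5.26. The groups did not overlap, with NC library 3 lowest. The log2 fold change was 0.44 (SE 0.28, edgeR adjusted p = 0.345), and 0.19 without NC library 3 (SE 0.19, adjusted p = 0.487), where the difference was about the size of its error.

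HEY1 (ENSG00000164683, chromosome 8 from 79762371 to 79767857, minus strand), a repressor related to HES1, was the most even of the 7 genes. It had 15.1, 15.0 and 15.1 normalized CPM in NC and 15.4, 17.2 and 15.1 in GRIK1 siRNA, and the groups overlapped. Its log2 fold change was 0.08 with and without NC library 3 (SE 0.13 and 0.11, edgeR adjusted p = 0.730 and 0.638).

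HEYL (ENSG00000163909, chromosome 1 from 39623435 to 39639643, minus strand) had 0 counts in each of the 6 libraries, and its promoter, like that of HES1, holds 2 RBPJ cores. A count of 0 allows up to 3 counts, which is 0.0525 to 0.0663 FPKM at these depths and covers counting error only. NRARP (ENSG00000198435, chromosome 9 from 137299631 to 137302271, minus strand), which limits Notch signaling by acting on the nuclear complex, had 2, 7 and 0 counts in NC and 2, 5 and 5 counts in GRIK1 siRNA. A difference in NRARP was not detectable at this depth (log2 fold change 0.19, SE 0.90, edgeR adjusted p = 0.933 without a filter).

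**Figure D3:**
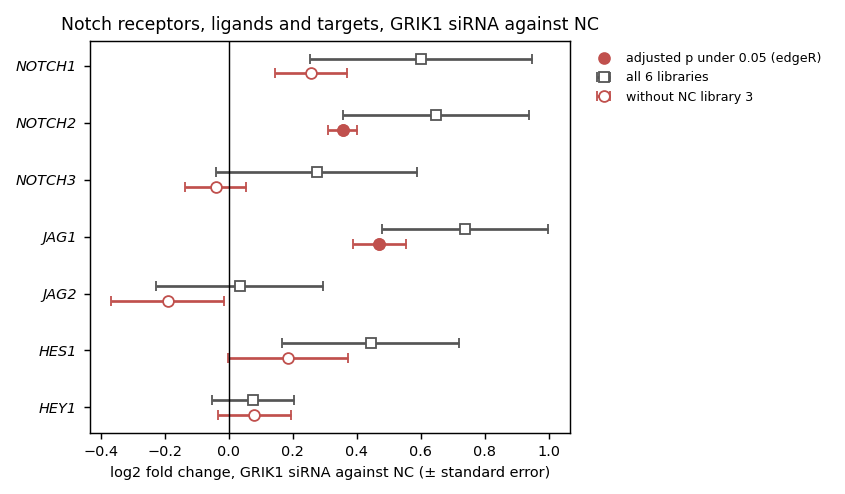
Log2 fold change (horizontal axis, with SE) of GRIK1 siRNA against NC for the 7 Notch genes tested, with all 6 libraries (squares) and without NC library 3 (circles, filled where the adjusted p from edgeR was under 0.05). NOTCH2 and JAG1 are the filled circles, at 0.36 and 0.47, and the point of each gene but HEY1 moves to the left without NC library 3.

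The libraries were also compared without a model. With all 6 libraries, the groups did not overlap for 4 of the 7 genes, NOTCH1, NOTCH2, JAG1 and HES1, each higher in the GRIK1 siRNA libraries. Among all genes tested this held for 19.4% as higher and for 19% as lower. Without NC library 3 the same 4 of 7 did not overlap, beside 28% of all genes as higher and 28.5% as lower. The genes were chosen with earlier results of these data known, so this share is not taken as particular to them.

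The other genes of the pathway moved in both directions. A list of 58 further genes was used, of which 44 passed the filter. With all 6 libraries 1 of the 44 was called, KAT2B, and 12 had an unadjusted p under 0.05, while DESeq2 called 5. Of all genes tested, 25.1% had such a p and DESeq2 called 10.6%, so these counts were near the background. The median log2 fold change of the 44 was -0.09, beside -0.02 for all genes tested. Without NC library 3, 24 of the 44 were called by edgeR, 10 higher and 14 lower, and 19 by DESeq2, beside 35.2% and 26.5% of all genes tested. The median of the 44 was then -0.05, beside 0.01 for all genes tested.

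KAT2B, a histone acetyltransferase that the Notch co-activator complex recruits, fell in the GRIK1 siRNA libraries. It had 22.1, 20.5 and 27.8 normalized CPM in NC and 9.98, 9.34 and 10.1 normalized CPM in GRIK1 siRNA. The groups were far apart, and NC library 3 was the highest. Its log2 fold change was -1.26 (SE 0.16, edgeR adjusted p = 0.0240), and -1.11 without NC library 3 (SE 0.11, adjusted p = 8.86e-07). When any 1 of the other 5 libraries was left out, the log2 fold change stayed between -1.35 and -1.22. The adjusted p from edgeR was then between 0.0667 and 0.206, so the call was lost. Each of these 5 fits called 0 of all genes tested, so this loss is not particular to KAT2B. The other acetyltransferases of the list, CREBBP and EP300, had positive log2 fold changes of 0.53 and 0.51, not called with all 6 libraries. Without NC library 3, CREBBP rose by 0.28 and EP300 by 0.23 on the log2 scale (edgeR adjusted p = 0.0198 and 0.0218), and DESeq2 called neither (adjusted p = 0.0636 and 0.0506).

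Of the 17 genes of the nuclear complex and its co-repressors that were tested, 10 were called without NC library 3, 6 as higher and 4 as lower, beside 16.9% and 18.3% of all genes tested. With all 6 libraries edgeR called 1 of the 17, KAT2B, as lower, beside 1.48% of all genes tested. There 4 had an unadjusted p under 0.05 and DESeq2 called 2, beside 25.1% and 10.6% of all genes tested. RBPJ itself had 143, 142 and 195 normalized CPM in NC and 126, 131 and 123 in GRIK1 siRNA. RBPJ fell by 0.17 on the log2 scale without NC library 3 (SE 0.05, edgeR adjusted p = 0.0148), and its difference with all 6 libraries was not called (-0.34, adjusted p = 0.215). The co-repressor SPEN and the Groucho family gene TLE3 rose by 0.32 and 0.52 on the log2 scale without NC library 3 (edgeR adjusted p = 0.00108 and 0.000155). With all 6 libraries their log2 fold changes were 0.63 and 0.71, not called by edgeR (adjusted p = 0.248 and 0.0851), while TLE3 was called by DESeq2 (adjusted p = 0.0190) and by edgeR without a filter (0.0367). The co-activator MAML1 had log2 fold changes of 0.18 with all 6 libraries and 0.06 without NC library 3, and edgeR called it in neither fit. CTBP1 and HDAC1 of this group are named here after their values were seen. They fell by 0.34 and 0.28 on the log2 scale without NC library 3 (edgeR adjusted p = 0.000219 and 0.000389). With all 6 libraries they had -0.15 and -0.30, not called by edgeR (adjusted p = 0.659 and 0.133).

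Among the genes of receptor cleavage, 6 of the 8 tested were called without NC library 3, 1 as higher and 5 as lower, beside the same 16.9% and 18.3%. With all 6 libraries edgeR called 0 of 8, where 4 had an unadjusted p under 0.05 and DESeq2 called 2, beside 25.1% and 10.6% of all genes tested. The gene called as higher was ADAM17, another protease that can cleave Notch receptors, which is named here after its values were seen. ADAM17 rose by 0.39 on the log2 scale without NC library 3 (edgeR adjusted p = 0.000240), and had 0.27 with all 6 libraries (adjusted p = 0.245). ADAM10, the protease of the first cleavage after ligand binding, had 197, 201 and 219 normalized CPM in NC and 150, 164 and 163 in GRIK1 siRNA. It fell by 0.32 on the log2 scale without NC library 3 (edgeR adjusted p = 9.85e-05), and its log2 fold change was -0.37 with all 6 libraries (adjusted p = 0.111, 0.0389 from DESeq2). APH1A, a subunit of gamma-secretase, fell by 0.31 without NC library 3 (edgeR adjusted p = 0.000895), and had -0.50 with all 6 (adjusted p = 0.129).

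In the remaining groups of the list, 1 of 3 glycosylation genes was called without NC library 3, where 35.2% of all genes tested were called. This was RFNG, a fringe glycosyltransferase that modifies Notch receptors, which fell by 0.66 on the log2 scale (edgeR adjusted p = 0.000180, with -0.54 and 0.117 for all 6 libraries). Of 11 genes of ubiquitination and trafficking 5 were called in that fit, 3 as higher and 2 as lower, a share near that background. FBXW7, which marks the intracellular Notch domain for degradation, rose by 0.43 (edgeR adjusted p = 0.000257, with 0.56 and 0.0862 for all 6 libraries, where DESeq2 gave 0.0235). Of the 2 other HES and HEY genes that passed the filter, HES7 fell by 1.26 on the log2 scale without NC library 3 (edgeR adjusted p = 0.0258, 0.0962 from DESeq2), on 17 and 23 counts against 12, 10 and 7. NC library 3 had 3 counts of HES7, and with it the groups overlapped. With all 6 libraries the log2 fold change of HES7 was -0.75 (SE 0.67, edgeR adjusted p = 0.502). Of the 3 other receptors and ligands 1 was called, DNER, a noncanonical ligand, which is named here after its values were seen. DNER was more abundant than NOTCH2 per length in each library, between 27.65 and 64.89 FPKM. It had 252, 250 and 122 normalized CPM in NC and 177, 174 and 175 in GRIK1 siRNA, so NC library 3 was the lowest and the other NC libraries the highest. The log2 fold change of DNER was -0.25 with all 6 libraries (edgeR adjusted p = 0.569), and it fell by 0.52 without NC library 3 (adjusted p = 1.12e-07).

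**Figure D4:**
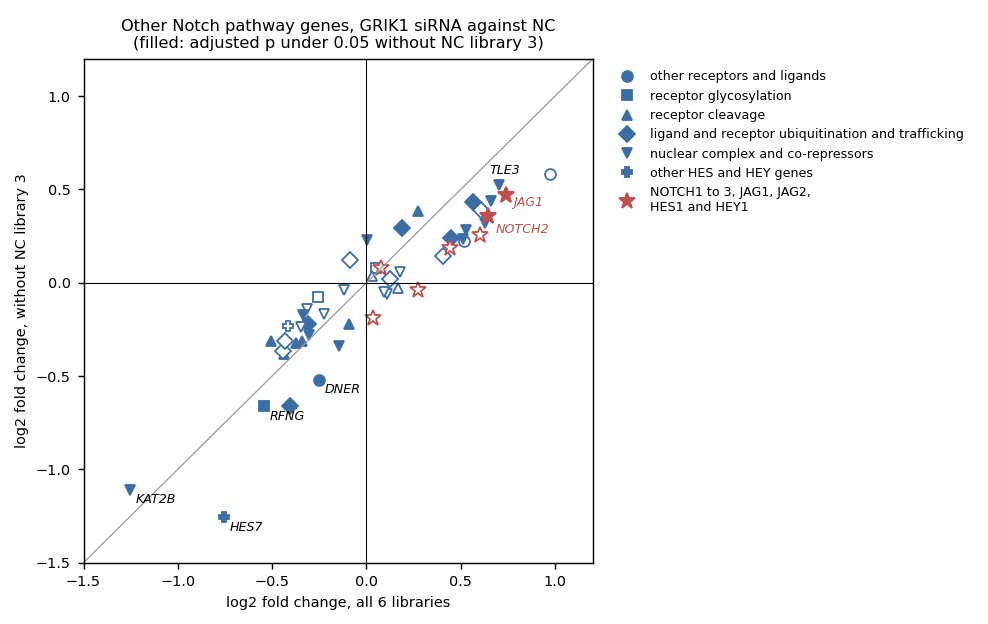
Log2 fold change of the 44 further Notch pathway genes tested with all 6 libraries (horizontal axis) and without NC library 3 (vertical axis), with a symbol for each role, filled where the adjusted p from edgeR was under 0.05 without NC library 3, and a line of equal values. Red stars are the 7 receptors, ligands and targets. KAT2B is at -1.26 and -1.11, and most of the other genes are within 0.7 of 0 on both axes.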

How the data were processed

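Groups were taken from the titles of the libraries. The authors deposited whole-number counts of reads per gene, without normalization, and FPKM values. The deposited FPKM equals the count divided by the library total and the exonic size in 100% of values (tolerance 0.0051). The submitters' processing notes name cutadapt 1.9.1, HISAT2, HTSeq and GRCh38. The strand setting and the test are not given in the sources used here. No column of values was left unassigned.

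Counts were tested in R 4.3.3 with edgeR 4.0.16 (quasi-likelihood, TMM, group only, genes whose mean FPKM over all 6 libraries reached 0.5, Benjamini-Hochberg adjustment over 15870 genes). DESeq2 1.42.0 and limma 3.58.1 on log2(FPKM + 1) were alternatives. The tests were tried on simulated counts, where the requirement on changed genes recovered was relaxed after a first failure because it lay within the spread between random draws. Normalized CPM used the TMM factors, and log2 CPM a prior count of 2. Depth limits precision, since a count of 0 allows 3 counts (95% limit). The smallest p of an exact permutation test of 3 against 3 is 0.1, so none was used.

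The 10 genes, the list of 58 further genes and the markers were chosen with earlier results of these data known. The rule for named genes takes the 10 genes, GRIK1, the NOTCH2NL genes, RBPJ, MAML1, ADAM10, up to 10 genes of the list called with all 6 libraries or without NC library 3, by size of log2 fold change, and the 3 genes most correlated with NOTCH1, JAG1 and HES1. Some genes that the rule names are not reported here. The symbol NOTCH2NL was in the list of copies but not in the table. Gene coordinates are those of the table, and promoters are from RefSeq (GRCh38.p14). Alternatives were the tests above, median-of-ratios scaling, other filters, a block for the replicate number and leaving out each library. DESeq2 without NC library 3 was added after the data were seen.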

Additional observations from a re-analysis of the deposited data

How the results depend on the processing

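The calls depended on the library left out. Of all genes tested, 490 had an adjusted p under 0.05 from edgeR and 224 of these passed an absolute log2 fold change of 1. Leaving out 1 library gave between 0 and 5591 and between 0 and 491, where the upper value is without NC library 3 and each of the other 5 fits gave 0. An unadjusted p under 0.05 was reached by 2238 to 4434 genes in those 5 fits. The Notch genes called were between 0 and 2 of 7, and those of the further list between 0 and 24 of 44, with the upper value again without NC library 3. DESeq2 called 1676 genes, 498 with the fold threshold, and 5 of the further list. DESeq2 without NC library 3, tried after the data were seen, called 4210, 377, 2 Notch genes and 19 of the list. Without a filter the counts were 1403, 664 and, for the list, 2, the second of which was TLE3. limma on log2(FPKM + 1) gave 113 genes with the fold threshold. With the replicate block, 0 genes were called overall and 0 of the list, while 3324 had an unadjusted p under 0.05. The deviations from the group means of libraries with the same number correlated at -0.07, 0.04 and -0.04 across genes. Because NC library 3 dominates the deviations in its group, these values cannot tell whether the replicate numbers pair the libraries.

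Of the 7 Notch genes, NOTCH3 and JAG2 changed sign. NOTCH3 had a log2 fold change between -0.0413, without NC library 3, and 0.51 over the fits that left out 1 library, and -0.0392 with DESeq2 without NC library 3. JAG2 had between -0.19 and 0.28 over the same fits, and -0.19 with DESeq2 without NC library 3. It was -0.0058 and -0.01 without GRIK1 siRNA libraries 2 and 3. Each other Notch gene kept its sign in each fit. Leaving out NC library 3 took the lowest library of 6 of the 7 genes out of its group. The cause of the other changes was not tested.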

Other observations

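The genes whose log2 normalized CPM followed NOTCH1, JAG1 and HES1 most closely over the 6 libraries were looked up among the 15870 genes tested. Over 6 libraries, of which NC library 3 stands apart, high values are common, and 1006, 1231 and 1020 genes had a Pearson correlation over 0.95 with NOTCH1, JAG1 and HES1. Among the 3 nearest to JAG1 were AFDN (r = 0.999, and 0.996 without NC library 3) and ENSG00000287868 (0.999 and 0.996), which has no symbol in the table. Nearest to NOTCH1 were PIAS4 (0.998 and 0.982), TUBG2 (0.997 and 0.966) and PRDM15 (0.997 and 0.970). Nearest to HES1 were ENSG00000258210 (0.998 and 0.970) and ENSG00000261123 (0.997 and 0.953), both without a symbol, and SPDYA (0.997 and 0.949). These values describe the same libraries, and share their depth and scaling.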
